A study of Mus musculus with 6 samples.

Results

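Genes associated with the T lineage were examined in mouse blood progenitors that carry the leukaemia fusion MLL-ENL. They were the 10 genes Thy1, Lck, Cd7, Notch1, Notch2, Satb1, Gata3, Tcf7, Zap70 and Hes1, chosen by symbol from the 55471 gene IDs of the deposited table. All 10 symbols matched 1 gene ID each. RNA was sequenced from 3 libraries of the genotype LIN28B*MLL-ENL (L28BME) and 3 libraries of the genotype MLL-ENL (ME), so that both groups carry the fusion and differ in LIN28B. The cells were GMLPs from bone marrow, a lineage-negative population sorted for Kit, Sca1 and CD48 and against CD150. Cells of both groups were cultured with doxycycline (DOX) for 3 days after the sort and before RNA was isolated. Not given in the sources used here are the promoter that drives each transgene, the age of the mice, and whether replicates came from separate mice or cultures. As a result, p-values measure no more than the spread among these samples, and that spread may be technical. At issue is how LIN28B, a fetal RNA-binding protein, alters the transcriptome of progenitors with the fusion.

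A progenitor enters the T lineage when a Notch ligand of the thymus engages Notch1 on its surface. The receptor is cleaved, and its intracellular part joins the DNA-binding protein RBPJ and switches on Hes1, Tcf7, Gata3 and other genes. Commitment follows with Bcl11b, and the T-cell receptor then signals through the kinases Lck and Zap70. Several of these genes are also read in uncommitted or lymphoid-primed progenitors, natural killer cells and other lineages, so that no single one of them marks a T cell.

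The values are TPM, transcript abundances per unit of length scaled to a fixed total per library, so levels can be set side by side between genes. The depth behind a TPM is unknown, so no counting interval is printed. Between 13228 and 13288 genes reached a TPM of 1 in L28BME libraries, against 13215 to 13240 in ME libraries. Mitochondrial transcripts made up 4.49 to 4.85% of TPM in L28BME libraries and 4.12 to 4.35% in ME libraries, so that the groups did not overlap, and the part of this in the results below was not tested. Lin28b, the gene that defines the contrast, was at 11.2, 11.7 and 11.9 TPM in L28BME libraries and was listed at 0 in each ME library. In the bulk samples used here, fewer cells of a type and less RNA per cell cannot be told apart. Of the sort markers, Kit ranged over 73.2 to 88.4 TPM in L28BME and 76.5 to 106 TPM in ME, and Cd48 over 226 to 231 TPM in L28BME and 291 to 302 TPM in ME. Ly6a, which encodes Sca1, was at 1.38 to 3.18 TPM in L28BME and at 9.64 to 11.8 TPM in ME (limma adjusted p = 0.00376). Slamf1, which encodes CD150, stayed under 1 TPM in each library.

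Sequences that bear on these genes are shown first. LIN28B blocks the maturation of let-7 microRNAs, which bind messenger RNAs through bases 2 to 8, the seed, in capitals below. Of 10 mature let-7 names in RefSeq (GRCm38.p6), 9 shared the same seed and 1, let-7j, had another. Representative members of the shared seed group are:
let-7a-5p: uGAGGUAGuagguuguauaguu
let-7g-5p: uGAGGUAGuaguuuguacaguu
let-7i-5p: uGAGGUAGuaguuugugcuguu
Annotated 3′ UTRs (GENCODE, GRCm38) were searched for a match to bases 2 to 8 of the shared seed or to bases 2 to 7 with an A opposite base 1. Of the 10 genes, only Notch2 held one, on the plus strand at chr3:98148846-98148852, starting 1402 bases into a UTR of 2917 bases. It pairs with bases 2 to 7 and is in capitals:
Notch2 site: gattaagattgTACCTCAtccgaacctgc
A match was present in 1963 of 10899 tested protein-coding genes, in 28.4% of those called higher in L28BME and in 14.9% of those called lower. The 3′ UTRs of the other members ranged from 234 bases in Zap70 to 3711 bases in Satb1, and the median over tested protein-coding genes was 1146 bases. That median was 1250.5 bases in genes called higher and 1066 bases in genes called lower. The part of UTR length in the shares with a match was not tested. A match is a description of the letters only.

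Promoter windows from 250 bases before to 50 bases after a start site were available in RefSeq (GRCm38.p6) for 7 of the 10 genes, 15 windows in all, of which some of Satb1 overlap. Lck is known for a pair of promoters, and its windows have start sites 15269 bases apart. Gene-level TPM do not tell them apart. They are shown with the Zap70 window at the first annotated start, because both kinases were called higher in L28BME. Capitals mark matches on either strand to TGGGAA, the core bound by RBPJ, and TGTGGT, a core bound by RUNX factors.
Lck upstream window (minus strand, chr4:129573592-129573891): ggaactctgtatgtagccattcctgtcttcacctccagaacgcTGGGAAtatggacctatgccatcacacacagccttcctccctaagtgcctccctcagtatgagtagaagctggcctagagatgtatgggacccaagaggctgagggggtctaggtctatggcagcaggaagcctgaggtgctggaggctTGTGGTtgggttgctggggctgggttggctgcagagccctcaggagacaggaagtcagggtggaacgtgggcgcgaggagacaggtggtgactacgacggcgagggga
Lck downstream window (minus strand, chr4:129558323-129558622): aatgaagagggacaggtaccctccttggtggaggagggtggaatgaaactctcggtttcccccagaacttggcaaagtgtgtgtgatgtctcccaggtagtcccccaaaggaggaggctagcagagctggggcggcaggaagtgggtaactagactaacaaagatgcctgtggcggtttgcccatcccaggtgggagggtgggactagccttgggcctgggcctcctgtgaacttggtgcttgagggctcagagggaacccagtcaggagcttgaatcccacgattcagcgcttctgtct
Zap70 window (plus strand, chr1:36761548-36761847): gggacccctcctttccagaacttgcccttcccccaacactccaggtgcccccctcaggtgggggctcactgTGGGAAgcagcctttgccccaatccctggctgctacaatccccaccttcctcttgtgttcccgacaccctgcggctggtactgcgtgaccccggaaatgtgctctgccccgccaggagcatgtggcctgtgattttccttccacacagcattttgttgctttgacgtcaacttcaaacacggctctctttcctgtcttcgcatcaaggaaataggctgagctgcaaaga
The RBPJ core was in 4 of the 15 windows, or 26.7%, in Lck, Zap70 and Satb1, against 25.6% of all 32817 windows, a share close to the background. The RUNX core was in 2 windows, of Lck and Zap70, against 16.8% of all windows. The TCF and LEF core CTTTGA was in 1 window, of Zap70 (5251 of all windows), and the E-box CAGCTG in 3, of Gata3, Satb1 and Tcf7 (16.3%). The E-box CACGTG was in 1 window of Zap70 (7.15%). The HES family motif CACGNG, which includes that E-box, was in 4 windows, of Notch2, Satb1 and Zap70 (27.5%).

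L28BME cells had higher levels of Cd7, Lck, Zap70, Satb1 and Notch1 and lower levels of Thy1 than ME cells. Cd7 showed the largest rise among the members, 1.96-fold, and Thy1 fell to 0.577 of its ME mean. Notch2, Tcf7 and Hes1 did not pass the test, and Gata3 was too low to be tested. Of the 10 genes, 9 passed the filter of 1 TPM in at least 3 of the 6 libraries, and 5 of these were called higher and 1 lower at an adjusted p under 0.05 (limma on log2(TPM + 1), Benjamini-Hochberg over 13348 genes). Over all genes tested, 14.9% were called, 8.28% as higher and 6.6% as lower. The groups did not overlap for 7 of the 9 genes, 6 of them higher and 1 lower, against 36.7% of all genes tested. The median log2 fold change was 0.43 over the 9 genes and 0.0033 over all genes tested. The 10 genes were picked with earlier results of these data known.

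**Figure D1:**
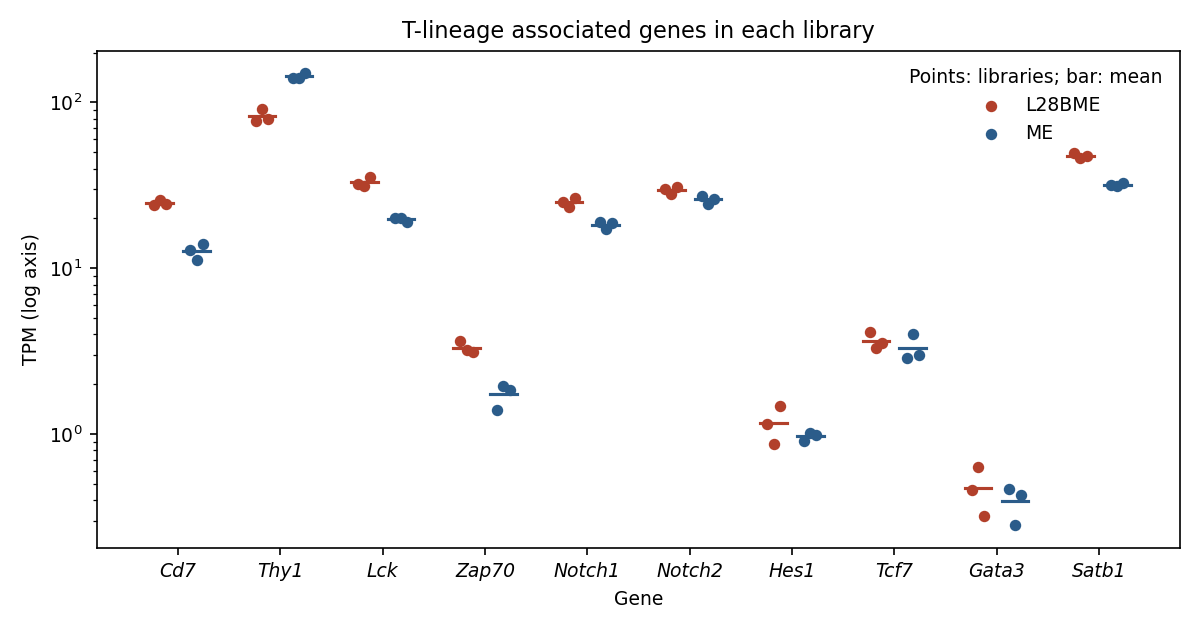
TPM of the 10 genes (log axis) in each library, with L28BME left of ME; points are libraries and bars are means of 3. Cd7, Lck, Zap70, Notch1, Notch2 and Satb1 lie higher in all L28BME libraries, Thy1 lies lower, and Hes1, Tcf7 and Gata3 overlap.

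Of the surface proteins, Thy1 was the most abundant member. Thy1 (ENSMUSG00000032011, chromosome 9, 44043384 to 44048579, plus strand of GRCm38) encodes CD90, a small glycolipid-anchored protein of T cells, some stem cells and neurons. It was at 77.5, 91.5 and 79.6 TPM in L28BME libraries and at 140.3, 141 and 149.9 TPM in ME libraries. The groups lay far apart, with the highest L28BME library well under the lowest ME library. The means were 82.9 ± 7.56 TPM in L28BME and 143.6 ± 5.38 TPM in ME (SD, n = 3 each, here and below), or -0.79 as a log2 fold change (SE 0.070, limma adjusted p = 0.00162). Its mean over all libraries was above that of 86.9% of the genes tested. Cd7 (ENSMUSG00000025163, chromosome 11, 121036747 to 121039418, minus strand) encodes an immunoglobulin-family receptor that in humans is among the first surface markers of T and natural killer progenitors. It was at 24.1, 25.8 and 24.6 TPM in L28BME libraries and at 12.8, 11.3 and 13.9 TPM in ME libraries. All L28BME libraries were above all ME libraries, and the gap was larger than the spread within either group. The log2 fold change was 0.92 (SE 0.085, limma adjusted p = 0.00189). Thy1 and Cd7, both surface genes of the T lineage, therefore moved in opposite directions in the same libraries.

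Among the 10 genes are a pair of kinases of the T-cell receptor pathway, and both were called higher. Lck (ENSMUSG00000000409, chromosome 4, 129548344 to 129573641, minus strand) encodes the Src-family kinase that phosphorylates the receptor's CD3 chains. It was at 32.4, 31.5 and 35.4 TPM in L28BME libraries and at 20.2, 20.3 and 19.03 TPM in ME libraries. The groups did not overlap. The means differed 1.67-fold, or by 0.71 on the log2 scale (SE 0.062, limma adjusted p = 0.00151). Zap70 (ENSMUSG00000026117, chromosome 1, 36761798 to 36782818, plus strand) encodes the kinase that docks on the phosphorylated chains. It was at 3.65, 3.23 and 3.12 TPM in L28BME libraries and at 1.41, 1.95 and 1.86 TPM in ME libraries. The groups did not overlap, but its level was low, above that of 12.6% of the genes tested. The log2 fold change was 0.66 (SE 0.12, limma adjusted p = 0.0180), and the fold of the means was 1.92. The Zap70 call was lost without L28BME replicate 1 (adjusted p = 0.0644), L28BME replicate 2 (0.0543) or ME replicate 3 (0.0508). Syk, the relative of Zap70 in B and myeloid cells, had a far higher level than Zap70, 105 ± 5.86 TPM in L28BME and 92.9 ± 5.34 TPM in ME, and did not pass the test (adjusted p = 0.114).

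Notch1 rose, and its paralog Notch2 did not pass. Notch1 (ENSMUSG00000026923, chromosome 2, 26457903 to 26516663, minus strand) encodes the receptor that directs T-lineage entry. It was at 25.2, 23.4 and 26.6 TPM in L28BME libraries and at 19.01, 17.2 and 18.8 TPM in ME libraries. All L28BME libraries were above all ME libraries. The log2 fold change was 0.43 (SE 0.070, limma adjusted p = 0.0124), or 1.37-fold between the means. Gene models on the opposite strand share exonic bases with Notch1, 1068 of them with 0610009E02Rik, which ranged over 0.527 to 1.43 TPM in L28BME and 0.153 to 0.947 TPM in ME. Whether quantification used strand is not given in the sources used here. Notch2 (ENSMUSG00000027878, chromosome 3, 98013527 to 98150361, plus strand) encodes a receptor best known in marginal zone B cells. It was at 30.3, 27.9 and 31.1 TPM in L28BME libraries and at 27.4, 24.5 and 26.2 TPM in ME libraries. These groups also did not overlap, though the lowest L28BME library was close to the highest ME library. The log2 fold change was 0.19 (95% interval 0.03 to 0.35) with an adjusted p of 0.120 in limma, so it did not pass over all genes. Whether the changes of Notch1 and Notch2 differ was not tested. Notch3 and Notch4 were under 1 TPM in each library.

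Of the 4 targets and transcription factors among the 10 genes, Satb1 rose, Tcf7 and Hes1 did not pass, and Gata3 was below the filter. Satb1 (ENSMUSG00000023927, chromosome 17, 51736187 to 51833290, minus strand) encodes a chromatin organiser of thymocytes that is also active in lymphoid-primed progenitors. It was at 49.5, 46.3 and 47.8 TPM in L28BME libraries and at 32.02, 31.2 and 32.7 TPM in ME libraries. Each group was tight, and the groups lay far apart. The log2 fold change was 0.57 (SE 0.045, limma adjusted p = 0.00113). Tcf7 (ENSMUSG00000000782, chromosome 11, 52252371 to 52283014, minus strand) encodes TCF-1, which Notch1 induces at the start of T-lineage specification. It was at 4.11, 3.31 and 3.53 TPM in L28BME libraries and at 2.88, 4.01 and 3.02 TPM in ME libraries. The groups overlapped, and the log2 fold change was 0.12 (95% interval -0.21 to 0.45, limma adjusted p = 0.614). Hes1 (ENSMUSG00000022528, chromosome 16, 30064384 to 30067796, plus strand) encodes a repressor that Notch signalling induces. It was at 1.15, 0.878 and 1.48 TPM in L28BME libraries and at 0.907, 1.01 and 0.995 TPM in ME libraries. The groups overlapped, and the log2 fold change was 0.13 (95% interval -0.21 to 0.47, limma adjusted p = 0.592). Gata3 (ENSMUSG00000015619, chromosome 2, 9857078 to 9890034, minus strand) encodes a zinc finger factor needed at several steps of T-cell development. It was at 0.459, 0.64 and 0.322 TPM in L28BME libraries and at 0.471, 0.283 and 0.432 TPM in ME libraries. No library reached 1 TPM and the groups overlapped. Tested with no filter on low values over 23940 genes, its log2 fold change was 0.08 (95% interval -0.18 to 0.33, limma adjusted p = 0.729).

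**Figure D2:**
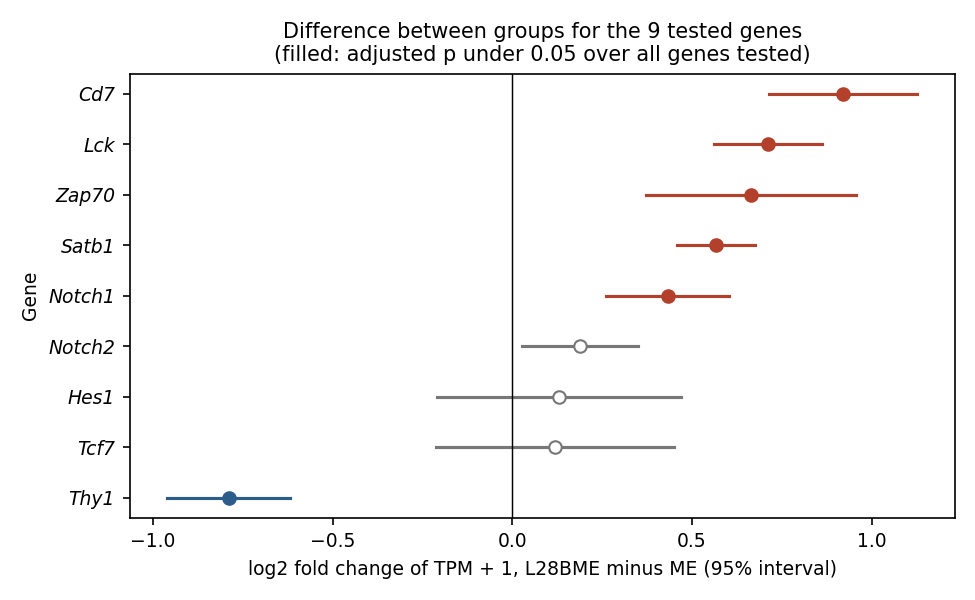
log2 fold change of TPM + 1 (L28BME minus ME, horizontal axis) of the 9 tested genes, with 95% intervals from limma; filled points passed an adjusted p under 0.05. Cd7 at 0.92, Lck, Zap70, Satb1 and Notch1 lie right of 0 and Thy1 lies left of 0 at -0.79.

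The members spanned a wide range of levels. In L28BME the order of mean TPM was Thy1 (82.9), Satb1 (47.8), Lck (33.1), Notch2 (29.8), Notch1 (25.07), Cd7 (24.8), Tcf7 (3.65), Zap70 (3.33), Hes1 (1.17) and Gata3 (0.474). Among neighbours in that order, only Notch1 and Cd7, and Tcf7 and Zap70, overlapped between libraries. In ME the order of mean TPM was Thy1 (143.6), Satb1 (31.96), Notch2 (26.03), Lck (19.8), Notch1 (18.3), Cd7 (12.7), Tcf7 (3.30), Zap70 (1.74), Hes1 (0.972) and Gata3 (0.395). No neighbours overlapped between libraries there, although the lowest Lck library (19.03) was next to the highest Notch1 library (19.01). Satb1 was at 0.577 of the Thy1 mean in L28BME and at 0.223 of it in ME. The GC content of the members lay between 41.4% in Satb1 and 53.9% in Thy1, against a median of 46.3% over genes tested.

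**Figure D3:**
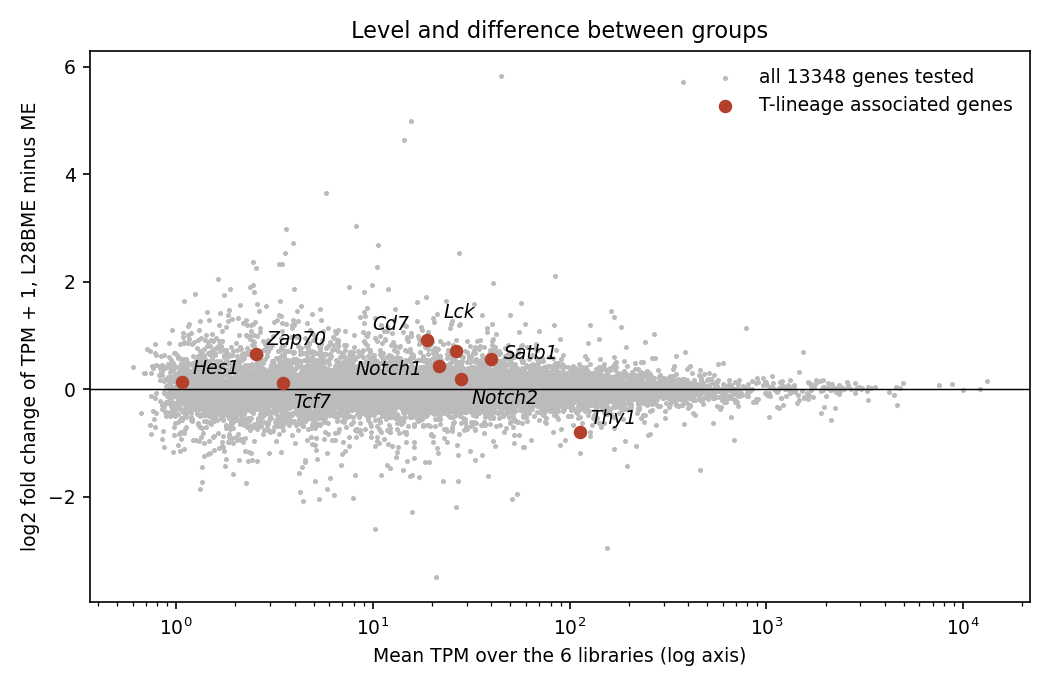
Mean TPM over the 6 libraries (log axis) against the log2 fold change of TPM + 1 (L28BME minus ME); grey points are the 13348 genes tested and red points the 9 tested T-lineage associated genes. Cd7, Lck, Satb1, Notch1 and Notch2 sit together at middle levels, and Thy1 stands alone at a high level and below 0.

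Most genes that define T cells were at or near 0. In a list of 14 T cell markers, Cd3e, Cd8a, Cd8b1, Trbc1 and Trbc2 were listed at 0 in each library, and 2 markers, Cd5 and Cd28, were tested. The summed level of the list was 8.70 to 8.84 TPM in L28BME and 3.92 to 5.24 TPM in ME, and Cd5 and Cd28 made up most of it. Cd5, a receptor that dampens antigen receptor signals, was at 3.76, 4.45 and 3.50 TPM in L28BME libraries and 1.56, 2.46 and 1.75 TPM in ME libraries. It was called higher (log2 fold change 0.76, limma adjusted p = 0.0245). The call held without ME replicate 2 and was lost when any of the other 5 libraries was left out (adjusted p = 0.0563 to 0.0801). Cd28, a costimulatory receptor, was at 2.61 ± 0.196 TPM in L28BME and 1.78 ± 0.418 TPM in ME and did not pass (adjusted p = 0.133). Cd3g stayed under 1 TPM, at 0.422 to 0.801 in L28BME and 0 to 0.262 in ME. Cd2 scattered and was not tested, at 0.979, 0.135 and 1.73 TPM in L28BME libraries and 0, 0.446 and 0.106 TPM in ME libraries. Among 7 early thymocyte markers, Bcl11b and Ptcra were listed at 0 in each library. Of the 5 tested, Rag1, Rag2 and Ccr9 were called higher, and Il2ra and Cd1d1 were not called. A list of 20 genes held T-cell receptor chains, coreceptors and other T-cell surface proteins, and 6 were listed at 0 throughout. Of these genes 4 were tested, all of them other surface genes, with Cd7 and Cd5 higher, Thy1 lower and Cd28 not called. No gene of a receptor or CD3 chain passed the filter, nor did Cd4, Cd8a or Cd8b1. These counts stand beside the 14.9% called over all genes tested.

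**Figure D4:**
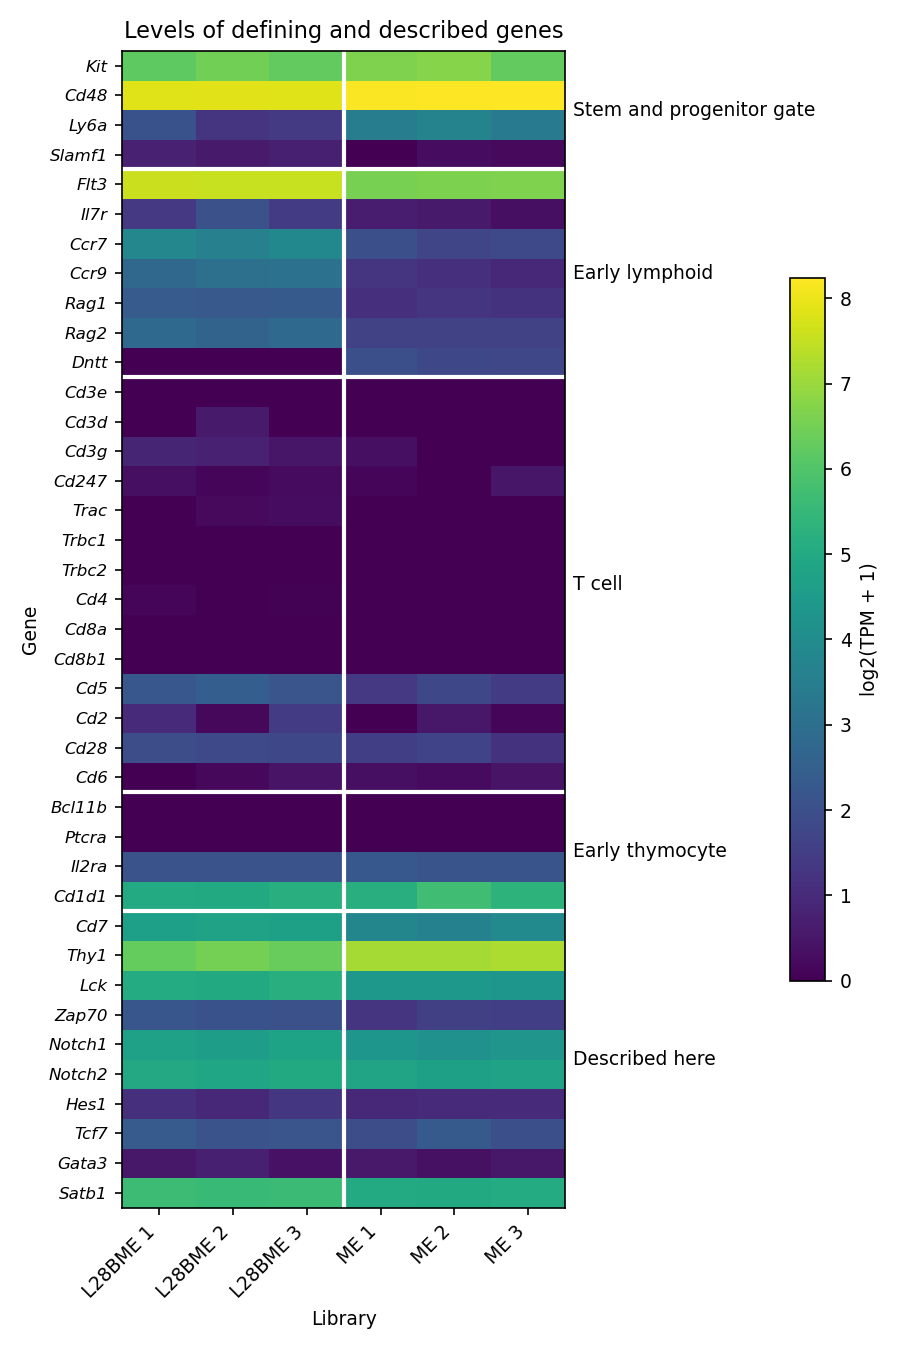
log2(TPM + 1) by colour for genes in rows and libraries in columns, L28BME left and ME right, in blocks of sort genes, early lymphoid genes, T cell markers, early thymocyte markers and the 10 genes described. The T cell block is near 0 except for Cd5, Cd28 and, in some libraries, Cd2, while the early lymphoid block is brighter in L28BME except for Dntt.

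Genes of early lymphoid progenitors moved beside the members. All 18 on that list were tested, and 9, with Satb1, were higher, 3 lower and 6 not called, with a median log2 fold change of 0.41. Among all genes tested, 8.28% were called higher and 6.6% lower. Rag1, Rag2 and Ccr9 are on this list and also among the early thymocyte markers above. Il7r among the higher and Dntt among the lower passed the filter only through the group where they were high, and without them 8 of 16 were higher and 2 lower. Flt3, the receptor that marks lymphoid-primed progenitors, was at 187 ± 2.10 TPM in L28BME and 96.6 ± 3.96 TPM in ME (log2 fold change 0.95, limma adjusted p = 1.60e-04). Rag1 and Rag2, the recombinase of antigen receptor genes, had means of 4.05 and 5.73 TPM in L28BME and of 1.29 and 2.03 TPM in ME (adjusted p = 0.00105 and adjusted p = 0.00112). The chemokine receptors Ccr7 and Ccr9, which guide progenitors to the thymus, had means of 12.5 and 6.81 TPM in L28BME and of 2.60 and 1.14 TPM in ME (adjusted p = 5.63e-04 and adjusted p = 0.00101). Dntt, which encodes the terminal transferase of lymphoid progenitors, went the other way. It was listed at 0 in each L28BME library and at 3.06, 2.42 and 2.41 TPM in ME libraries. It passed the filter only through ME, so no p and no fold are given. Cd24a and Cd34, surface genes of progenitors, also fell, to means of 335 and 440.2 TPM in L28BME, against 408 and 506 TPM in ME. Il7r, the receptor for the lymphoid cytokine interleukin 7, was singled out after its values were seen. It was at 1.60, 3.14 and 1.76 TPM in L28BME and at 0.567, 0.515 and 0.256 TPM in ME, and passed the filter only through L28BME. For that reason no p is given, as for Dntt. The call of Il7r did not hold when any 1 ME library was left out. Il7r was not tested without any 1 L28BME library.

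Among 41 genes of proximal T-cell receptor signalling, 36 were tested, 7 were higher, 2 lower and 27 not called (median log2 fold change 0.12). The share called over all genes tested was 14.9%. Besides Lck and Zap70, the Src-family kinase gene Fyn was higher, at 54.4 ± 1.998 TPM in L28BME and 33.2 ± 3.45 TPM in ME (log2 fold change 0.70, limma adjusted p = 0.00399). Plcg2, a phospholipase used mainly in B and myeloid cells, was at 191 ± 5.16 TPM in L28BME and 140.8 ± 0.983 TPM in ME (adjusted p = 9.02e-04). Themis2, a signalling scaffold of B and myeloid cells, was higher as well, at 25.9 ± 0.793 TPM in L28BME and 16.9 ± 1.01 TPM in ME. The kinase gene Tec fell to 35.7 ± 1.47 TPM in L28BME, against 51.8 ± 1.55 TPM in ME (adjusted p = 0.00189). Lcp2, which encodes the adaptor SLP-76, fell to 55.4 ± 0.701 TPM in L28BME, against 65.9 ± 0.908 TPM in ME (adjusted p = 0.00712). Ptpn6 and Csk, the tested members with the highest levels, were not called, at 218 and 213 TPM in L28BME and at 197 and 196 TPM in ME.

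Of 36 T-lineage transcription factor genes, 28 were tested, 6 were higher, 3 lower and 19 not called (median log2 fold change 0.10). Here too, 14.9% were called over all genes tested. Besides Satb1, the higher ones included Tox, a factor of T-cell and innate lymphoid development, at 10.6 ± 0.512 TPM in L28BME and 6.10 ± 0.487 TPM in ME (log2 fold change 0.71, limma adjusted p = 0.00388). Zbtb7b, which encodes the CD4-lineage factor ThPOK, was at 27.2 ± 0.877 TPM in L28BME and 15.8 ± 0.997 TPM in ME (log2 fold change 0.75, adjusted p = 0.00139). Ikzf1, which encodes the lymphoid regulator Ikaros, was at 75.2 ± 0.645 TPM in L28BME and 58.4 ± 3.45 TPM in ME (adjusted p = 0.00763). The lower ones included Gfi1, at 42.4 ± 0.242 TPM in L28BME and 63.7 ± 0.760 TPM in ME (adjusted p = 5.42e-04). Myb, a factor of immature blood cells, was also lower, with a log2 fold change of -0.20 (adjusted p = 0.00469). Lmo2, a stem cell cofactor, had the highest level of the list and scattered widely, over 189 to 394 TPM in L28BME and 161 to 534 TPM in ME, and was not called.

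Genes of the Notch pathway are given by role, beside the 14.9% called over all genes tested. Of 7 ligand genes, 1 was tested: Jag2, at 10.2, 11.2 and 11.7 TPM in L28BME libraries and 7.97, 7.31 and 6.86 TPM in ME libraries. It was called higher (log2 fold change 0.52, limma adjusted p = 0.0132), with adjusted p = 0.0506 without ME replicate 2. Of 4 receptor genes 2 were tested, and Notch1 was the one called. Of 18 genes on a list of Notch processing, glycosylation and ubiquitin ligase genes, 17 were tested and 1 was called. It was the ubiquitin ligase gene Neurl3, lower at 83.8 ± 2.11 TPM in L28BME and 94.0 ± 3.15 TPM in ME (adjusted p = 0.0457, and 0.0697 to 0.130 without any 1 library). No tested protease, secretase or glycosylation gene was called. The secretase subunit gene Ncstn and the protease gene Adam17, with the highest levels there, were at 117 and 107 TPM in L28BME and 122 and 115 TPM in ME and were not called. All 17 genes of the nuclear complex and its corepressors were tested, and 2 were higher. The coactivator gene Maml3 was at 22.03 ± 0.465 TPM in L28BME and 18.1 ± 0.410 TPM in ME (adjusted p = 0.0186). Without L28BME replicate 1 or 3 or ME replicate 2 or 3 its adjusted p was 0.0612 to 0.0664. The corepressor gene Tle4 was at 26.03 ± 0.502 TPM in L28BME and 21.5 ± 0.720 TPM in ME (adjusted p = 0.01997). That call held without ME replicate 1 and was lost when any of the other 5 libraries was left out (adjusted p = 0.06 to 0.0715). Rbpj itself was at 52.4 ± 3.22 TPM in L28BME and 43.4 ± 5.39 TPM in ME and was not called (adjusted p = 0.136). Hdac1 and Ncor1 had the highest levels of that list and were not called.

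Of 18 Notch target genes, 8 were tested, 1 was higher and 7 were not called, where 14.9% of all genes tested were called. The higher one was Nrarp, a feedback inhibitor that Notch signalling induces, at 5.64, 4.70 and 5.02 TPM in L28BME libraries and 3.28, 3.49 and 3.85 TPM in ME libraries (log2 fold change 0.43, limma adjusted p = 0.0382). That call was lost without any 1 of the 6 libraries (adjusted p = 0.0642 to 0.108). Ptcra, Bcl11b, Cd3e, Hey1 and Hey2 were listed at 0 in each library. Myc and Hes6, the targets with the highest levels, were not called. Among 11 inhibitors and turnover genes, of which 10 were tested, Nrarp and Itch were higher and Dtx4 was lower. Without any 1 library adjusted p was 0.0668 to 0.124 for Itch and 0.0573 to 0.0726 for Dtx4, and both calls were lost. Nedd4, with the highest level on that list, was not called.

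**Figure D5:**
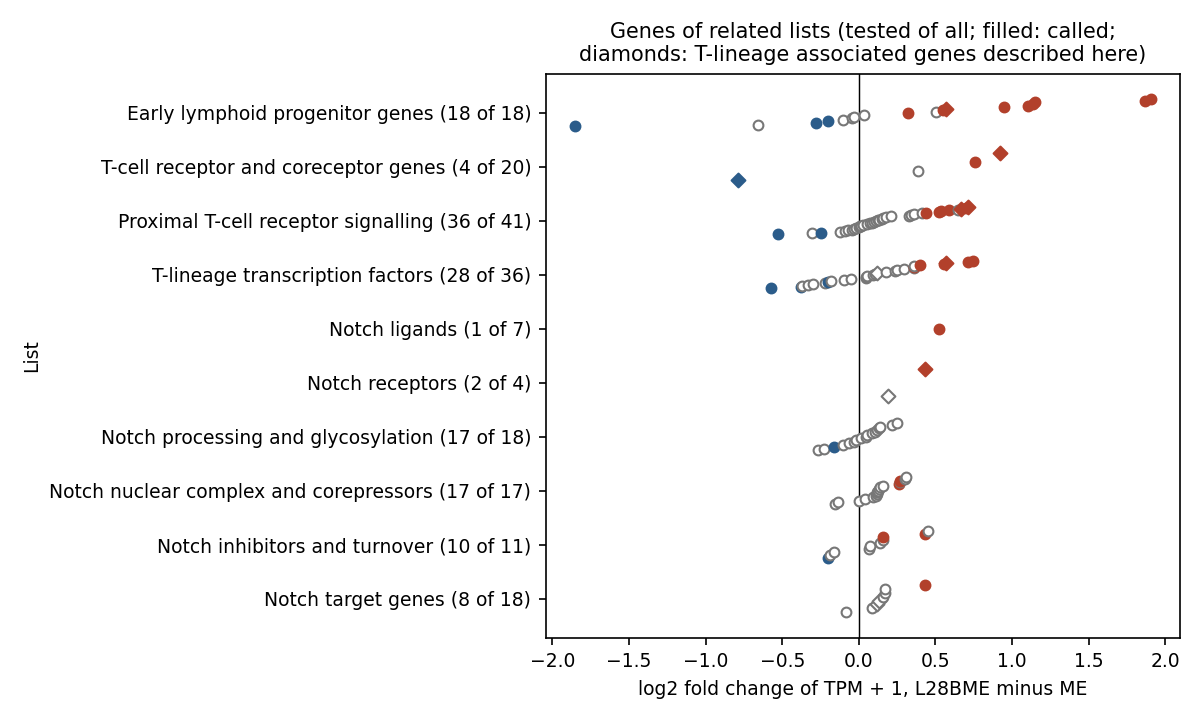
log2 fold change of TPM + 1 (L28BME minus ME, horizontal axis) of the tested genes of 10 lists; filled red points were called higher, filled blue points lower, open points were not called, and diamonds are the genes described. Early lymphoid genes reach 1.91 (Ccr7), the fitted value of Dntt, listed at 0 in L28BME, is no bound, and most Notch pathway genes lie close to 0 and are open.

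Markers of other cells that express some of the members were read beside them, and their part in the results was not tested. Their counts stand beside the 14.9% called over all genes tested. Of 12 natural killer and innate lymphoid markers, 5 were tested, of which Prf1 and Il2rb passed the filter only through L28BME. Of the other 3, Zbtb16 was higher, and Ncr1 was listed at 0 in each library. The summed level of that list was 33.2 to 41.5 TPM in L28BME and 33.8 to 42.7 TPM in ME. Il1rl1 made up most of that sum, at 22.02 to 26.95 TPM in L28BME and 26.25 to 35.03 TPM in ME. The sum therefore follows that gene more than the other markers. Zbtb16 was at 8.16 ± 1.15 TPM in L28BME and 4.47 ± 0.794 TPM in ME (limma adjusted p = 0.0254). That call held without L28BME replicate 2 and was lost when any of the other 5 libraries was left out (adjusted p = 0.0535 to 0.0835). Prf1 was at 1.63 ± 0.359 TPM in L28BME and 0.475 ± 0.271 TPM in ME. Because of how it passed the filter, no p is given for Prf1, and its call was lost without any 1 ME library. It was not tested without any 1 L28BME library. Il1rl1, not called over all libraries, was called lower without ME replicate 1 (adjusted p = 0.0412). Of 8 B cell markers, 4 were tested and Cd79b and Ebf1 were higher, and the summed level was 61.3 to 65.5 TPM in L28BME and 31.7 to 34.05 TPM in ME. Cd79b made up most of that sum, at 56.9 ± 2.33 TPM in L28BME and 27.2 ± 0.673 TPM in ME (adjusted p = 2.65e-04). Ebf1 was called at adjusted p = 0.0340, and the call was lost without any 1 library (0.0535 to 0.0984).

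Of 5 plasmacytoid dendritic markers, all were tested, Siglech only through ME. Cox6a2 and Ccr9 were higher, where 14.9% of all genes tested were called. Their summed level was 236 to 248 TPM in L28BME and 204 to 216 TPM in ME, and Siglech, a defining marker, was at 0.631 to 0.972 TPM in L28BME and 1.24 to 1.58 TPM in ME. Of 6 stromal markers, Pdgfrb was tested and called higher, at 27.7 ± 0.883 TPM in L28BME and 22.7 ± 0.856 TPM in ME (limma adjusted p = 0.0204). That call was lost without L28BME replicate 1 or 3 or ME replicate 2 or 3 (adjusted p = 0.0585 to 0.0676). Pdgfra and Cxcl12 were listed at 0 in each library, and the summed level of the stromal list was 27.2 to 28.8 TPM in L28BME and 22.07 to 23.5 TPM in ME. None of 4 endothelial markers passed the filter, and their sum stayed under 1 TPM in each library.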

How the data were processed

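The authors deposited TPM per gene and library, made from TruSeq Stranded mRNA libraries per the labels. The submitters' processing notes name bcl2fastq, HISAT2, StringTie and DESeq2 with GRCm38, without versions. GC content is deposited as a percent per gene. The table had 60496 entries for 55471 gene IDs, and 431 IDs on more than one entry were summed (0 had values on more than one).

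TPM are not counts, so depth is unknown and no count model was used. The scale was log2(TPM + 1), for genes that reached 1 TPM in 3 or more of 6 libraries, using limma 3.58.1 (R 4.3.3, intensity trend, two-sided) and Benjamini-Hochberg adjustment over 13348 genes. Fold changes on this scale understate those of low genes. The members, lists and tests were chosen with earlier results of these data known. Text names all members and, per list, up to 6 called genes with the smallest p and 2 with the highest level. The procedure was tested on simulated data. Sequences came from RefSeq (GRCm38.p6) and GENCODE M21. Other tools were Python 3.11.15, pandas 2.3.3, numpy 2.4.6 and matplotlib 3.10.9.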

Additional observations from a re-analysis of the deposited data

How the results depend on the processing

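Under 20 alternatives (other pseudocounts, filters, scalings, limma options, a replicate term, GC trend removal, protein-coding genes only, overlapping gene models summed, and each library left out), Cd7, Lck, Satb1, Notch1 and Thy1 kept their direction and call wherever they were tested, and Notch2, Tcf7 and Hes1 were called in none. Members called higher numbered 4 to 5 and lower 1. Over all genes, leaving out 1 library gave 592 to 694 genes higher and 447 to 566 lower, against 1105 and 881 with all 6 libraries, with fewer samples in each fit. Replicate numbers are not stated to mark a shared animal or day. Deviations of equal numbers correlated at -0.032, -0.0743 and -0.0516 across genes, and no library correlated best with its own number. Such weak correlations cannot settle whether samples shared an animal or day, so pairing is unknown. A replicate block gave 548 genes higher and 400 lower. Of the 61 genes named and fitted, 12 lost their call: Zap70 (limma adjusted p = 0.0773), Jag2 (0.0691), Maml3, Tle4, Neurl3, Nrarp, Itch (0.126), Dtx4, Il7r, Prf1, Ebf1 and Pdgfrb (0.0604). Il7r and Prf1 had passed the filter only through L28BME, so no p is given for them. Among the others adjusted p ranged from 0.0604 to 0.126. Without 1 library, genes that were not called changed sign: the log2 fold change of Bst2 ranged over -0.05085 to 0.008215, that of Lmo2 over -0.854 to 0.006029 and that of Tcf4 over -0.05414 to 0.2156, with the sign turned for Bst2 without L28BME replicate 1, L28BME replicate 3 or ME replicate 3, and for Lmo2 and Tcf4 without ME replicate 3. The cause was not tested. Itch was called in 7 of 20 alternatives. The depth behind the low values of Hes1, Gata3, Zap70 and Tcf7 is unknown.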
